A study of Mus musculus with 16 samples.

Results

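Goblet cells are the mucus-secreting cells of the intestinal epithelium. In the colon they release gel-forming mucin together with small proteins that act on bacteria or on the mucus itself, and their output is known to shift when the colon is inflamed or colonised by other microbes. Among these products, Ang4 is an angiogenin of the ribonuclease A family with reported bactericidal activity, Retnlb is the resistin-like molecule RELMβ, a goblet cell peptide with known antibacterial action, and Spink4 is a Kazal-type protease inhibitor of goblet cells. The genes examined here were chosen by name: Ang4, Muc2, Tff3, Zg16, Fcgbp, Agr2, Spink4, Retnlb, Spdef and Sprr2a3, wherever one of them appears in a deposited table. Of these 10 genes, Ang4, Retnlb and Spink4 were found, so 3 of the 5171 distinct genes in the tables are described. The other 7 genes, among them the gel-forming mucin Muc2 and the trefoil peptide Tff3, are in none of the 4 tables under these names. The tables hold only genes that passed the authors' DESeq2 test at an adjusted p of 0.05, so these 7 were called in no comparison. Their levels were not analysed here, and the 3 genes found do not stand for goblet cell products as a whole.

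The study compared wild type (WT) mice with mice in which Vil-Cre deleted floxed exons of the chromatin remodeller Smarcad1 from the gut epithelium (KO). The villin promoter drives Cre in epithelial cells, so the other cells of the tissue kept the gene, and the KO line derives from 1 targeted embryonic stem cell clone. All mice were C57BL/6, males according to the methods, and all received an enriched microbiota by bedding transfer and shared ventilation with donor females from 2 weeks before treatment, controls included; ages were not stated. For colitis, mice drank 1% dextran sodium sulphate (DSS), which injures the colon lining, for 15 days. RNA from whole colon tissue gave 16 libraries, 3 from each genotype without DSS and 5 from each genotype with colitis. The paper reports a weaker colitis response to DSS in KO than in WT mice. Where colitis groups of the 2 genotypes are compared, genotype and severity of disease therefore cannot be told apart.

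Values are the authors' group means of log2 RPM, reads scaled to a fixed library total and not corrected for gene length. Single libraries were not analysed, so no mean carries a spread and no difference was tested here; an RPM figure is the back-transformed log2 mean. A gene is called listed where the authors' own test put it in the table of a comparison at an adjusted p of 0.05, and "rose" or "fell" is written only of listed genes. Each of the 5171 genes is listed in at least 1 of the 4 comparisons, so counts over them describe listed genes and not the transcriptome. Of these genes, 63.1% are listed for colitis in WT, 78.4% for colitis in KO, 0.890% for KO against WT in control and 1.08% for KO against WT in colitis. The geometric mean library size lay between 8.005 M and 10.1 M reads. A mean of 3 reads per library served as the floor, at or under which a fold is given only as a bound that covers counting error only. Without DSS, Smarcad1 itself was at 5.77 log2 RPM in WT and 4.59 in KO, and with colitis at 5.68 and 4.55, and is listed lower in KO in both states. The colon labels were examined through marker genes. Car1, a carbonic anhydrase of colonocytes, stood at 11.74 log2 RPM in WT control. Fabp2 and Rbp2, from a list of Paneth and small intestinal genes, were at 9.17 and 5.39 there. Of 8 genes of distal gut identity only 2 are in the tables, so these levels do not settle the gut segment. Smooth muscle Myh11 was at 10.98 and fibroblast Col3a1 at 10.25 in WT control, so muscle and connective tissue RNA was measured together with that of the epithelium.

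Ang4 (ENSMUSG00000060615) is a protein-coding gene of 2 exons on chromosome 14, from 51763878 to 51773590 on the minus strand (GRCm38). It belongs to a cluster of closely related angiogenin genes, and a read that fits several of them equally well would not be uniquely mapped. The end of the coding sequence is shown because it holds the longest stretch shared exactly with a relative, 79 bases. That is shorter than the 100-base reads of these libraries, so a full-length read over it also covers bases outside the shared stretch. The coding part, 435 bases from 51764055 to 51764489, lies within the second exon, and its last 300 bases were read from the GENCODE transcript (chr14:51764055-51764354, minus strand). Capitals mark the 79 bases that are identical to Ang5:
Ang4 coding end: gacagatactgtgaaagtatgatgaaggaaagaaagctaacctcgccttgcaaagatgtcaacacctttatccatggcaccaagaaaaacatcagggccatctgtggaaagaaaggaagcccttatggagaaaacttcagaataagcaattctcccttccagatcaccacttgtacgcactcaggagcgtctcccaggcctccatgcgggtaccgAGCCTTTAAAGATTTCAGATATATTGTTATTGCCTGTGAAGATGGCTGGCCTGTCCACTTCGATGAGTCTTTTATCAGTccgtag
A further stretch of 50 bases, shared with Ang2, lies in the 3′ untranslated part. In all, 31 of 660 windows of 50 bases along the Ang4 transcript (4.70%) occurred in another gene, and 0 of 610 windows of 100 bases did. For Retnlb and Spink4, 0 windows of either length occurred elsewhere.

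Ang4 was highest in untreated WT colon, lower in untreated KO colon and lowest in colitis, where the genotypes lay close together. WT control stood at 7.95 log2 RPM (247 RPM), KO control at 6.36 (81.9 RPM), WT colitis at 3.97 (15.7 RPM) and KO colitis at 4.41 (21.2 RPM). Both control means were above both colitis means, the highest being WT control and the lowest WT colitis. These means correspond to 2498, 799.7, 125 and 210 reads per library in the same order, all far above the floor. Whether neighbouring means in this order differ beyond the spread between mice cannot be said from group means.

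With colitis, Ang4 differed by −3.98 in WT, 15.8-fold lower and 6.34% of the control level. In KO it fell by 1.95, 3.85-fold, to 26.0% of the control level. In bulk tissue, fewer goblet cells and less Ang4 RNA per goblet cell cannot be told apart. Across all listed genes the median difference was 0.13 for WT and 0.19 for KO, and 13.0% of genes were lower by at least 1 log2 in WT and 12.6% in KO. Against these, the Ang4 difference was the fourth lowest of 5171 genes in WT and number 138 from the lowest in KO. Ang4 is listed for colitis in KO but not for colitis in WT, where its mean differed more. Of the 4 genes with a difference at least that large in WT, the other 3 are listed for colitis in WT, as are 110 of the 120 genes that were lower by at least 2 and 63.1% of all 5171 genes. Of the 138 genes lower in KO colitis by at least as much as Ang4, 131 are listed for colitis in KO, where 78.4% of all 5171 genes are. The spread between WT mice was not measured here and its part in this was not tested.

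With colitis, the means of Retnlb differed in the opposite direction to those of Ang4. It is encoded on the plus strand of chromosome 16, from 48816856 to 48818891 (ENSMUSG00000022650). WT control stood at 5.77 log2 RPM (54.5 RPM), KO control at 3.94 (15.3 RPM), WT colitis at 9.50 (723 RPM) and KO colitis at 8.67 (407 RPM). Both colitis means were above both control means, and in each state KO was below WT. Retnlb rose by 3.73 in WT colitis, 13.3-fold, and is listed there. In KO it differed by 4.73, 26.6-fold higher, and is not listed for colitis in KO. The background was 18.4% of genes higher by at least 1 log2 in WT and 16.0% in KO. The KO difference was number 12 from the highest of 5171 genes, and 9 of the 12 genes at or above it are listed for colitis in KO. Ang4 and Retnlb were thus each listed in the genotype with the smaller difference of their means.

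Spink4 is encoded on the plus strand of chromosome 4, from 40920052 to 40931395 (ENSMUSG00000028415). Its means were 8.83 log2 RPM for WT control, 9.05 for KO control, 9.83 for WT colitis and 10.06 for KO colitis, which corresponds to 454, 532, 909 and 1068 RPM. It rose by 1.00 in WT and by 1.01 in KO, 2.00-fold and 2.01-fold, and is listed for colitis in both genotypes. The difference between these responses was 0.00 log2, and KO exceeded WT by 0.23 in control and by 0.23 in colitis. Spink4 is the member for which both genotypes are listed, and its 4 means span the smallest range of the 3 genes.

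**Figure D1:**
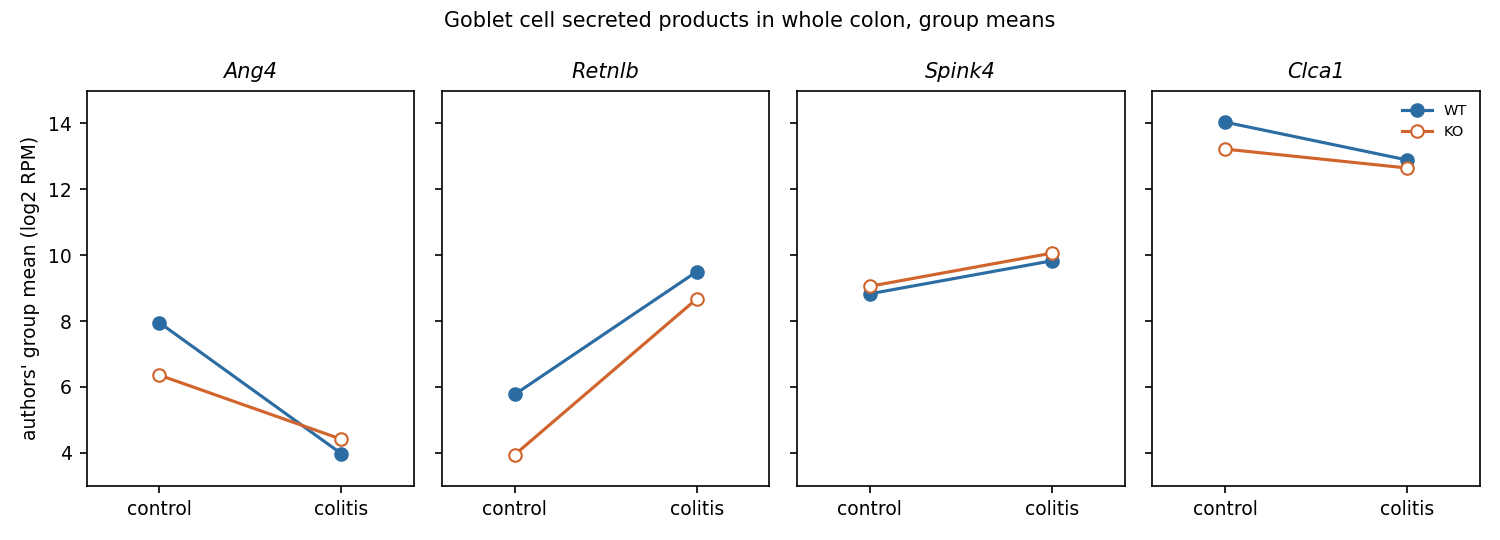
Authors' group means in log2 RPM (y axis) for Ang4, Retnlb, Spink4 and the goblet cell gene Clca1 in control and colitis (x axis), WT as filled blue points and KO as open orange points; no error can be drawn for group means. Ang4 is at 7.95 and 6.36 in the controls and at 3.97 and 4.41 in colitis, Retnlb runs the other way from 5.77 and 3.94 to 9.50 and 8.67, and Spink4 stays between 8.83 and 10.06.

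Per length, the order of these transcripts turned over with colitis. On the scale of RPM per kilobase of merged exon, the level in WT control was 951 for Spink4, 348 for Ang4 and 78.3 for Retnlb. In WT colitis the level per kilobase was 1906 for Spink4, 1039 for Retnlb and 22.1 for Ang4. In KO control the same scale gave 1115 for Spink4, 115 for Ang4 and 22.0 for Retnlb, and in KO colitis 2239, 30.0 and 585. In both genotypes Ang4 was above Retnlb in control and below it in colitis, with Spink4 above both throughout. As a ratio of the 2 genes' RPM, Ang4 to Retnlb stood at 2.18 log2 in WT and 2.42 in KO without DSS, and at −5.53 and −4.26 in colitis, so the ratio shifted by −7.71 in WT and by −6.68 in KO. In the controls this ratio differed between genotypes by 0.24, although each gene alone was lower in KO. Each shift of the ratio with colitis rests in part on an unlisted difference, that of Ang4 in WT and that of Retnlb in KO.

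None of the 3 genes is listed for KO against WT, in control or in colitis. The question addressed by this comparison is which genes depend on Smarcad1 with and without colitis. In control, the KO mean of Ang4 was below the WT mean by 1.59 on the log2 scale, 3.02-fold lower and 33.1% of WT. For Retnlb the difference was −1.83, 3.56-fold lower and 28.1% of WT. The background was 0.735% of genes lower in KO control by at least 1 log2, against 1.08% higher, with a median of 0.00 over all genes. Retnlb was the third lowest and Ang4 the sixth lowest of 5171 genes in this difference. The 6 genes at or beyond the Ang4 difference were Pcdh17 (−2.20), Aqp9 (−1.95), Retnlb, Gm45397 (−1.71), Zfp831 (−1.66) and Ang4, and of these Pcdh17 alone is listed for KO against WT in control. Of the 38 genes lower by at least 1, 4 are listed. Most differences of that size between the 3 WT and 3 KO controls were therefore not called in the authors' test, and those of Ang4 and Retnlb are values without a call. For its other RNA datasets, among them sorted cells and organoids, the paper names Ang4 among genes that differ in KO. It describes those genes as mostly higher in KO, and its text gives no separate direction for Ang4.

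In colitis the genotypes lay closer for Ang4, with KO above WT by 0.44, 1.36-fold. The Retnlb difference in colitis was −0.83, 1.77-fold lower in KO. In this state 2.90% of all genes were lower in KO by at least 1 log2 and 1.49% higher, and neither Ang4 nor Retnlb reached 1 in either direction. The response to colitis differed between genotypes by 2.03 for Ang4, KO minus WT, number 10 from the highest of 5171 genes, where 2.03% of genes were higher by at least 1 and 4.31% lower. For Retnlb it differed by 1.00. These figures reuse the control means of the preceding paragraph and are not separate evidence, and whether the responses differ beyond the variation among mice was not tested.

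**Figure D2:**
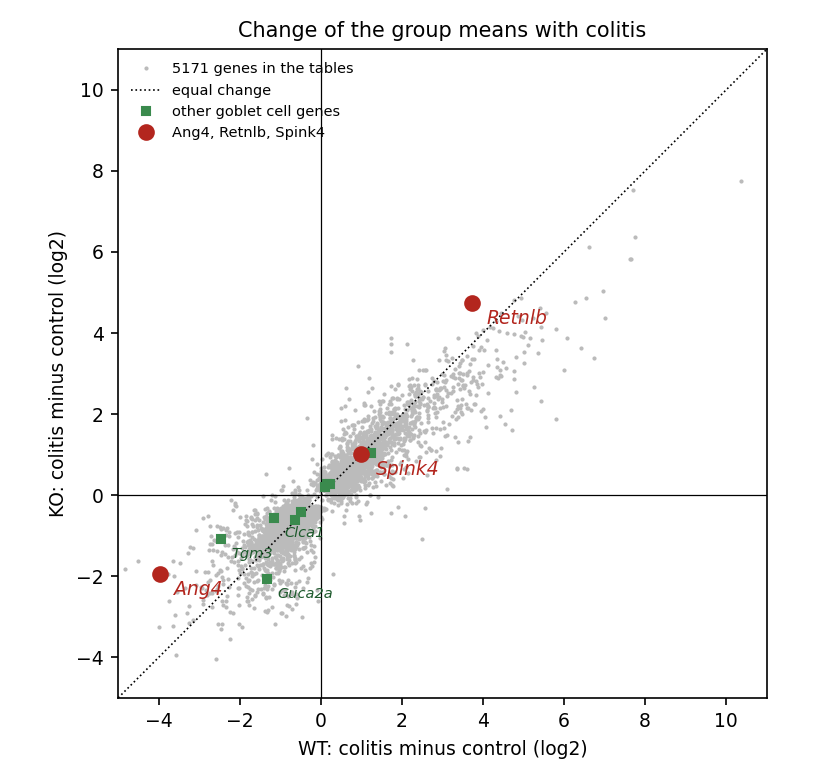
Change of the group mean with colitis in WT (x axis, log2) against the same in KO (y axis, log2) for 5171 listed genes (grey), with Ang4, Retnlb and Spink4 in red, the other goblet cell genes found in green and a dotted line of equal change. Ang4 lies at −3.98 and −1.95, at the left edge of the cloud, Retnlb at 3.73 and 4.73 above the dotted line, and Spink4 at 1.00 and 1.01 on it.

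Other goblet cell genes were examined to see whether Ang4 followed the lineage. Of a list of 39 such genes, 9 are in the tables. The other 30 are listed in no comparison, so counts over the 9 describe listed genes and not the lineage. In WT colitis 3 of the 9 were lower by at least 1 log2 and 1 was higher, with a median of −0.50. In KO colitis 2 were lower and 1 higher, with a median of −0.42. Over all genes 13.0% were lower and 18.4% higher in WT, with a median of 0.13, and 12.6% and 16.0% in KO, with a median of 0.19. Clca1, a secreted metalloprotease of colonic mucus, stood at 14.04 log2 RPM for WT control, 13.22 for KO control, 12.89 for WT colitis and 12.65 for KO colitis. It fell by 1.15 in WT, 2.22-fold, and its KO difference of −0.57 is not listed. Its KO control mean was 1.76-fold below that of WT, a difference of −0.82 that is not listed either.

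Among the remaining goblet cell genes, Tgm3, a transglutaminase that cross-links mucus proteins, fell by 2.48 in WT colitis, and its KO difference was −1.09. Guca2a, the precursor of guanylin, a peptide that drives fluid secretion, fell by 1.32 in WT and by 2.06 in KO. The chemokine Ccl9 rose by 1.23 and 1.03. Fer1l6, a ferlin family gene, fell by 0.63 and 0.61, and Ern2, the endoplasmic reticulum stress sensor of goblet cells, fell by 0.50 in WT with a KO difference of −0.42. In each genotype 4 of the 9 had a higher mean in colitis, Ccl9 alone by at least 1 log2. The list thus held genes in both directions. Ang4 was below all 9 in its WT difference, which is not listed. In KO, where Ang4 is listed, Guca2a fell further, by 2.06 against 1.95 for Ang4.

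Taken relative to Clca1, the Ang4 difference with colitis was −2.83 in WT and −1.37 in KO, and the KO control difference was −0.77. Relative to Ern2 the same figures were −3.48, −1.52 and −1.77. Relative to either gene Ang4 was lower in colitis in both genotypes, while the size of the genotype difference in control depended on the reference. The summed level of the 13 absorptive colonocyte genes found, of 18, was 16625 RPM for WT and 16188 for KO without DSS, 7659 and 8005 with colitis, with medians of −0.93 in WT and −0.63 in KO colitis. Of 17 pan-epithelial genes only Cldn4 is in the tables, with differences of −0.21 in WT and −0.92 in KO, and the part of epithelial content in the Ang4 values was not tested.

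Mucins and the enzymes that glycosylate them were described next. Of 15 mucin genes 2 are in the tables, both transmembrane mucins. Muc1 rose by 1.05 in WT and 1.55 in KO, and Muc13 by 0.70 and 0.64. Of 31 genes of mucin glycosylation 11 are in the tables, and 1 of them was higher by at least 1 log2 in each genotype, with 0 lower, and the medians were 0.34 in WT and 0.19 in KO, beside 0.13 and 0.19 over all genes, of which 18.4% and 16.0% were higher. That gene was Gcnt4, which forms branched O-glycan cores, with a rise of 1.20 in WT and 1.12 in KO. Fut2, the fucosyltransferase that adds terminal fucose in the gut, rose by 0.91 and 0.53, and Fut8, which adds core fucose, by 0.41 and 0.56. The sialyltransferases St3gal1 and St6galnac2 fell, by 0.78 and 0.74 for St3gal1 and by 0.75 and 0.73 for St6galnac2.

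Of these 11 genes, 2 sialyltransferases are listed for KO against WT in control, where 0.890% of all genes are. St3gal6 fell by 1.13, from 8.48 log2 RPM in WT to 7.35 in KO, and was at 7.66 and 7.23 in colitis. St3gal1 was at 6.73 and 6.16 in the controls, a difference of −0.57. St3gal6 also fell by 0.82 in WT colitis, whereas the KO difference of −0.12 is not listed. The untreated KO colon thus had lower St3gal6 and Ang4 means than WT, the former with a call and the latter without.

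**Figure D3:**
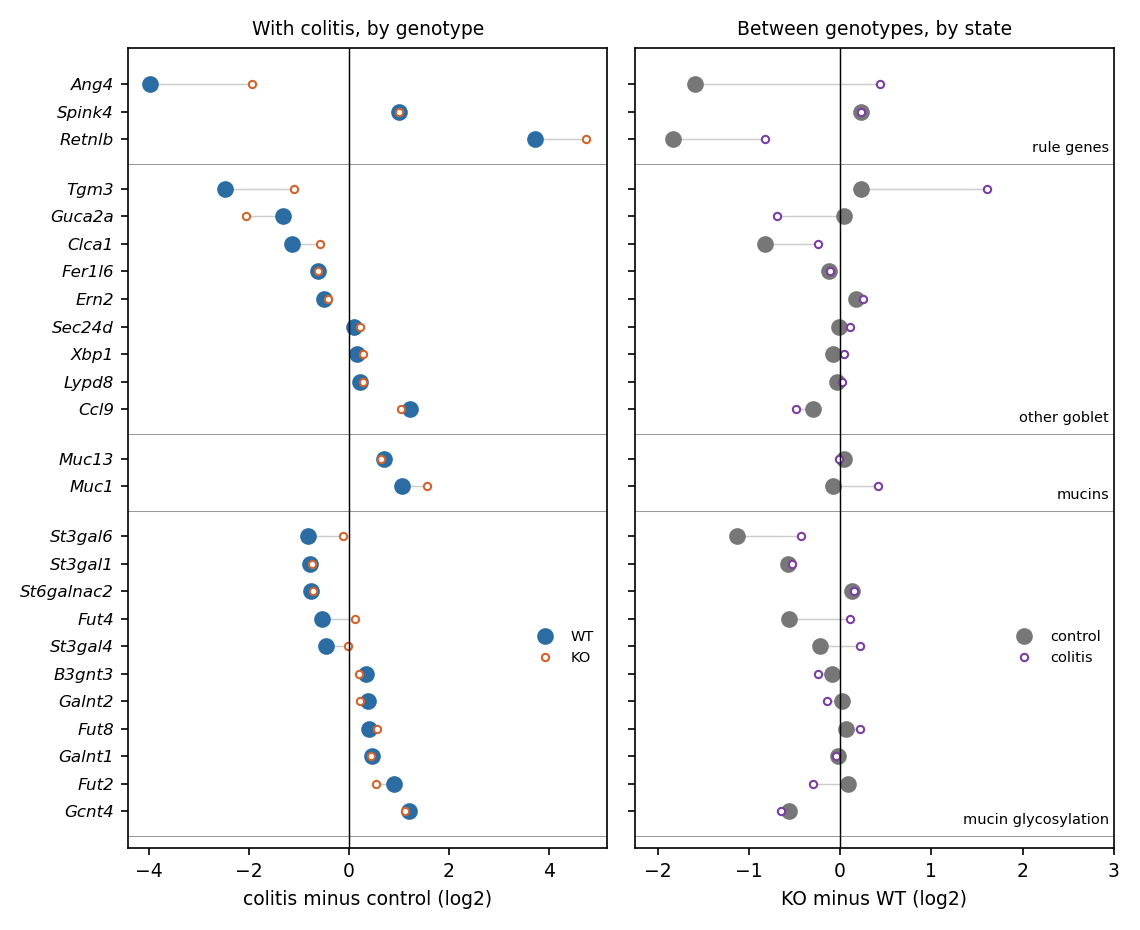
Log2 differences of the group means for the 3 rule genes, 9 other goblet cell genes, 2 mucins and 11 glycosylation genes found; left, colitis minus control in WT (filled blue) and KO (open orange), and right, KO minus WT in control (filled grey) and colitis (open purple). Ang4 and Retnlb span −3.98 to 4.73 on the left and are at −1.59 and −1.83 in control on the right, where St3gal6 is at −1.13.

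Of 16 regulators of the secretory lineage 3 are in the tables, and none changed by 1 log2 in either genotype. Over all genes 18.4% were higher and 13.0% lower by at least 1 log2 in WT, and 16.0% and 12.6% in KO, so 3 genes are too few to set the regulators apart. Foxa2, a factor that acts in goblet cells, fell by 0.66 in WT and differed by −0.51 in KO. Hnf4a, a regulator of intestinal epithelial genes, fell by 0.51 and 0.35. The Notch ligand Jag1 differed by −0.04 in WT and fell by 0.44 in KO. Their differences between genotypes in control ran from 0.04 to 0.28, all with KO above WT, beside a median of 0.00 over all genes.

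The relatives of the members moved in mixed directions. A list of 19 genes held members of the ribonuclease A family other than Ang4, together with the ribonuclease inhibitor Rnh1 and the angiogenin receptor Plxnb2. Of these, 3 are in the tables, and none was lower in colitis. Over all genes 13.0% were lower by at least 1 log2 in WT and 12.6% in KO, so 3 genes are too few to set this list apart. Rnase6, an antimicrobial ribonuclease of leukocytes, rose by 0.85 in WT and 1.33 in KO. The eosinophil-associated ribonuclease Ear2 differed by 0.77 in WT and rose by 1.27 in KO, and the inhibitor Rnh1, itself no ribonuclease, rose by 0.28 and 0.31. Ear2 lay between 0.728 and 1.76 RPM, so few reads stand behind it. Macrophage and monocyte genes moved the same way: 9 of 11 are in the tables, 7 of them higher by at least 1 in WT and 5 in KO, with medians of 1.35 and 1.08 beside 0.13 and 0.19 over all genes, of which 18.4% and 16.0% were higher. Their summed level was 805 RPM in WT control and 1976 in WT colitis, and 852 and 1930 in KO. Their part in the Rnase6 and Ear2 values was not tested.

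The neighbours of Retnlb on chromosome 16 are its paralogs. Retnla begins 23658 bases beyond Retnlb and Retnlg a further 28159 bases beyond Retnla, all on the plus strand. Retnla, known from alternatively activated macrophages and other cells, stood at 3.51 log2 RPM for WT control, 3.40 for KO control, 1.35 for WT colitis and 2.16 for KO colitis. It fell by 2.15 in WT, 4.45-fold, and the KO difference of −1.25 is not listed. Retnlg, known from neutrophils and bone marrow, was at 0.74, 0.36, 4.18 and 3.38 in the same order, and rose by 3.44 in WT and 3.02 in KO. Within this cluster the middle gene thus moved against its neighbours on either side. Of 13 neutrophil genes, 10 are in the tables and all 10 were higher in colitis by at least 1 in both genotypes, where 18.4% and 16.0% of all genes were. Their medians were 4.68 in WT and 3.11 in KO, and 4.37 and 2.92 with means raised to the floor, beside 0.13 and 0.19 over all genes, and 4 of the 10 in WT control and 5 in KO control were under the floor. The summed level was 99.3 and 107 RPM without DSS and 454 and 312 RPM with colitis, WT first in each, and of these Ly6g alone made up 92.0, 98.2, 207 and 236 RPM. The other 9 genes summed to 7.28, 8.42, 247 and 75.8 RPM in the same order. The part of neutrophils in the Retnlg values was not tested.

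**Figure D4:**
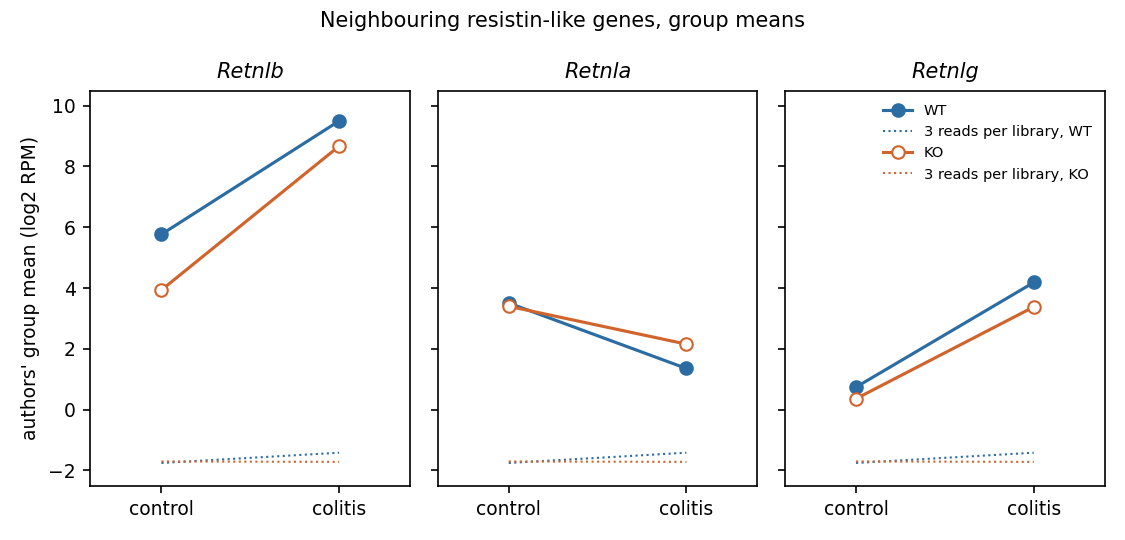
Authors' group means in log2 RPM (y axis) of Retnlb, Retnla and Retnlg, in their order along chromosome 16, in control and colitis (x axis) for WT (filled blue) and KO (open orange); dotted lines mark 3 reads per library. Retnlb and Retnlg are higher in colitis in both genotypes, and Retnla is lower, from 3.51 to 1.35 in WT and from 3.40 to 2.16 in KO.

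A list of 10 genes joined relatives of the anterior gradient, trefoil and Spink genes with chaperones of the secretory pathway, and 4 of them are in the tables. Agr3, a paralog of the goblet cell disulphide isomerase Agr2, was at 1.14 log2 RPM for WT control and 0.07 for KO control, and under the floor in both colitis groups. It fell at least 5.89-fold in WT, and the bound for KO was at least 3.45-fold. Spink1, another Kazal-type trypsin inhibitor, rose by 0.72 and 1.11. The chaperones Hspa5 and Pdia4 rose in KO by 0.51 and 0.22, with WT differences of 0.19 and 0.17. In the Sprr family, 2 of 15 genes are in the tables: Sprr1a rose by 1.46 in WT with a KO difference of 0.95, and Sprr2h rose from under the floor, at least 5.52-fold in WT, while the KO bound was at least 4.42-fold.

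Type 2 cytokines and the tuft cells that sense luminal signals are known inducers of goblet cell products. A list of 16 genes held these cytokines, their receptors, tuft cell genes and, in addition, Il22 and Il18, which belong to neither group, and 10 of the 16 are in the tables. In WT colitis 4 were higher and 3 lower by at least 1 log2, and in KO 3 and 3, Il22 being among the higher in both. The medians were 0.21 in WT and 0.47 in KO, beside 0.13 and 0.19 over all genes, of which 18.4% were higher and 13.0% lower in WT and 16.0% and 12.6% in KO. The alarmin Il33 rose by 2.28 in WT and 1.44 in KO. Il13ra2, the decoy receptor of IL-13, rose at least 6.65-fold in WT and 4.42-fold in KO. Il22, a cytokine that acts on the epithelium, rose in WT from under the floor, and is not listed in KO. The tuft cell genes were lower: Pou2f3, their lineage factor, fell by 1.90 in WT with a KO difference of −1.24, and Trpm5, their cation channel, fell by 1.55 and 1.30. Il25, the cytokine of tuft cells, was at −1.09 log2 RPM in WT control and fell there to under the floor, at least 1.26-fold; with colitis means raised to the floor, 2 genes of this list were lower by at least 1 in each genotype.

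The 5 genes whose profile over the 4 group means was nearest to that of Ang4, by root mean square distance after centring each profile, were 5430427M07Rik (0.37 log2), 9030616G12Rik (0.38), 9630028B13Rik (0.42), Gm11947 (0.44) and Pde6a (0.44), the last encoding a phosphodiesterase subunit. Agr3 came next at 0.45. Of the 5, 5430427M07Rik alone stood above the floor in all groups, with 4.34 log2 RPM for WT control, 3.75 for KO control, 0.59 for WT colitis and 1.14 for KO colitis. Its differences with colitis were −3.74 in WT and −2.61 in KO, and it is listed in both. The other 4 had at least 1 colitis mean under 3 reads per library. With Pearson correlation over the same 4 means as the measure, among the 2134 genes whose means span at least 1 log2, 0 of the 5 nearest genes were among these 5. With only 4 points per gene, taken from the same libraries, either list is a description.

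**Figure D5:**
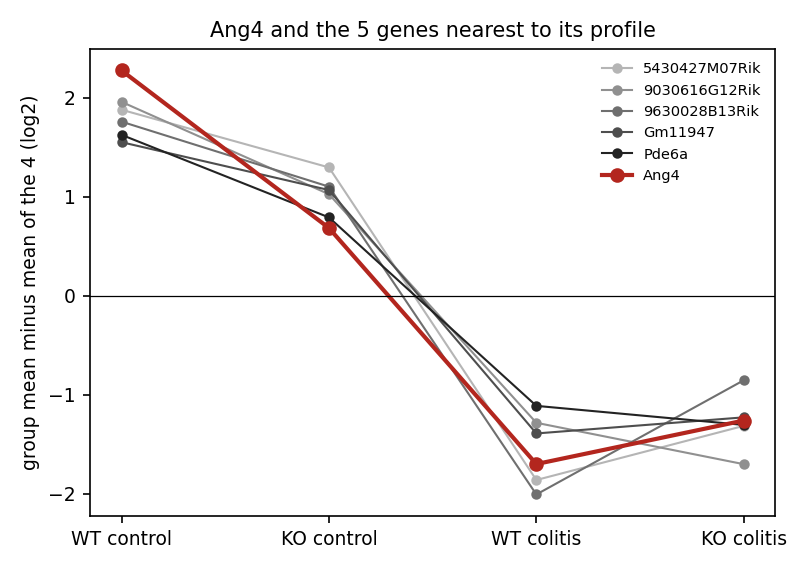
Group means of Ang4 (red) and of the 5 genes nearest to its profile (grey to black), each after subtraction of its own mean over the 4 groups (y axis, log2), by group (x axis). All 6 are highest in WT control and below their own mean in both colitis groups; Ang4 has the widest gap between WT and KO control, −1.59 against −0.48 to −0.93 for the other 5.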

How the data were processed

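Whole colon RNA was sequenced by the authors with 100-base reads, single-end per the labels and paired-end per the methods. The series text names small intestinal tissue, whereas each sample label says colon. Reads were mapped to GRCm38 with HISAT2 2.1.0, uniquely mapped reads were counted over merged exons in SeqMonk, and reads over annotated ribosomal RNA, found in some samples that the labels do not name, were removed. DESeq2 was run by the authors on raw counts between pairs of groups; no covariate is described. The 4 deposited tables hold the genes at an adjusted p of 0.05, the authors' adjusted p (its values were not used), and 4 group means in log2 RPM. Zero counts had been replaced by 0.9 read. Depth was recovered from the steps of the lowest means (tolerance 0.0001 log2).

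Columns were mapped to groups by name, and 0 value columns belonged to no sample of the series. Differences of the authors' log2 means were computed with Python 3.11.15 and pandas 2.3.3, and the calculation was tested on simulated data. A count test on single libraries had been foreseen and was not run: the 4 deposited tables analysed here hold group means, and a supplement of the study with read counts by sample was not used. The longer lists were described by counts at a difference of 1 log2 and by medians, beside the same over all 5171 genes. Named were every rule gene found, up to 6 genes of a list with the largest mean change over both genotypes, the 5 genes nearest to Ang4, and Smarcad1. The genes on either side of a value, the references for ratios and the genes beyond Ang4 in control were chosen after the values were seen. Members and lists were chosen with earlier results of these data known. Sequence, exon lengths and shared windows came from GENCODE M21.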

Additional observations from a re-analysis of the deposited data

How the results depend on the processing

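Only group means from the deposited tables were used, so the differences above carry no SD, interval or test, and leaving out replicates was not run; counts by sample in the study's supplement were not used. No paired analysis was possible because the columns of these tables hold group means and carry no replicate number. Of 94 alternatives over 12 results, 57 stayed within 0.2 log2 or 1.5-fold of the count, 33 moved further and 4 turned sign; 27 of the 94, those with the colonocyte, other goblet cell or Clca1 reference, were chosen after seeing the data. No alternative turned the sign of an Ang4 value.

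Ang4 values moved as follows. Relative to the pan-epithelial genes, which rest on Cldn4 alone, the Ang4 differences were −3.77 in WT, −1.03 in KO, 0.96 between genotypes in colitis and 2.74 between responses. Relative to the colonocyte genes they were −3.05 in WT and −1.32 in KO, relative to the other goblet cell genes −3.48 and −1.52, and relative to Clca1 −2.83 and −1.37, with −0.77 between genotypes in control, 0.68 in colitis and 1.46 between responses.

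The median over the 3 members, 1.00 in WT, 1.01 in KO, −1.59 between genotypes in control and 0.23 in colitis, depends on which are counted. Without Ang4, or with members listed for colitis in WT only (the same pair of genes), it was 2.37, 2.87, −0.80 and −0.30. With members listed for colitis in KO only it was −1.49, −0.47 and −0.68 for the first 3. Relative to the pan-epithelial reference the medians with colitis were 1.21 and 1.92 and that between genotypes in colitis 0.75, relative to the colonocyte genes 1.94 and 1.63, and relative to the other goblet cell genes 1.504 and 1.43. The count of members lower by at least 1 log2 was 1 in each genotype, became 0 in both without Ang4 or with members listed for colitis in WT only, and became 0 in KO at a difference of 2. With Pearson correlation, 0 of the 5 genes nearest to Ang4 were the same.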

Other observations

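Crypt and enteroendocrine genes were described beside the goblet cell genes. Of 11 genes of crypt stem and cycling cells 4 are in the tables, Ascl2, Axin2, Kit and Smoc2, and none of the cycling genes is. The medians of the 4 were −1.09 in WT and −0.63 in KO colitis, beside 0.13 and 0.19 over all genes. In WT 2 of the 4 were lower by at least 1 log2 and 0 higher, and in KO 0 changed by that much. Over all genes 13.0% were lower and 18.4% higher in WT, and 12.6% and 16.0% in KO. Ascl2, a factor of intestinal stem cells, fell by 1.85 in WT with a KO difference of −0.62, and its response differed between genotypes by 1.23, a value that was not tested. Axin2, a target of Wnt signalling, fell by 1.27 and 0.81, and Kit by 0.91 and 0.63. Smoc2 went the other way, with a WT difference of 0.28 and a rise of 0.41 in KO. Of 12 enteroendocrine and tuft cell genes 7 are in the tables, with medians of −0.62 in WT and −0.61 in KO. In WT 1 was higher and 2 lower by at least 1 log2, and in KO 0 and 2, beside the shares over all genes given above. The 2 lower genes were the tuft cell genes Pou2f3 and Trpm5 in both genotypes. The hormone gene Cck rose by 1.14 in WT with a KO difference of 0.57, and Pyy differed by 0.48 in WT and rose by 0.59 in KO.

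Among 16 Paneth and small intestinal genes, 4 are in the tables, with medians of −0.16 in WT and 0.24 in KO. In WT colitis 1 was higher and 1 lower by at least 1 log2, and in KO 2 and 2. Over all genes 18.4% were higher and 13.0% lower in WT, and 16.0% and 12.6% in KO. Mmp7, the matrilysin that activates Paneth cell defensins, differed by 2.87 in WT and rose by 2.78 in KO. Rbp2, a retinol-binding protein of absorptive cells, fell by 1.52 and 1.30, and Fabp2 fell by 0.99 in WT with a KO difference of −1.22. Fabp6, a bile acid-binding protein, differed by 0.67 in WT and rose by 1.69 in KO. All 8 T cell genes are in the tables, and 7 were higher by at least 1 in each genotype, where 18.4% of all genes were in WT and 16.0% in KO, with medians of 1.90 and 2.47 beside 0.13 and 0.19 over all genes and with Cd8a rising by 3.13 in WT and 3.31 in KO. Of 9 B and plasma cell genes only Cd79b is in the tables, with a difference of 0.23 in WT and a rise of 0.93 in KO, and of 6 endothelial genes only Tek, with −0.19 and a fall of 0.46.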
